A study of Homo sapiens with 12 samples.

Results

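The 10 genes described here encode the replicative helicase MCM2, MCM3, MCM4, MCM5, MCM6 and MCM7, the cyclins CCNE2, CCND1 and CCNB1, and the proliferation marker MKI67. They were taken by gene name from the lists of N1-methyladenosine (m1A) peaks of 6 immunoprecipitated (IP) libraries. All 10 had a peak in at least 1 list, out of 10226 genes with a peak in any list. The cells were SNU-668, a gastric cancer line, made resistant to erastin, a compound that triggers ferroptosis; the resistance is shared by both groups. ALKBH3 knockdown cells had received shRNA-ALKBH3, and control cells, whose genotype is given as WT, had received shRNA-NC. Each group had 3 IP and 3 input libraries, 12 samples in all, and the 6 IP libraries each had 1 deposited peak list. The labels do not say whether the cells were 1 clone, or whether replicates came from separate cultures, so the spread between replicates may be technical.

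m1A is a methyl mark on the base-pairing face of adenosine, and ALKBH3 is an enzyme that removes it from RNA. The MCM proteins form a ring of 6 subunits, encoded by MCM2 to MCM7, that is loaded onto DNA before S phase and unwinds it ahead of the replication fork. Cyclins switch on cyclin-dependent kinases: cyclin D1 (CCND1) in G1, cyclin E2 (CCNE2) at entry into S phase and cyclin B1 (CCNB1) at entry into mitosis. Ki-67 (MKI67) is present in dividing cells and coats mitotic chromosomes, and is widely used to score proliferation in tumours, gastric cancer included.

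A promoter window of 250 bases before to 50 bases after a transcription start was held for 6 of the 10 genes in the RefSeq table (GRCh38.p14), as 8 windows. They show what the genes share in sequence apart from the name by which they were chosen. The letters TTTCGCGC or TTTGGCGC, which E2F factors can bind, were searched on both strands and lay in windows of 4 of the 6 genes, MCM2, MCM3, MCM6 and MCM7, against 403 (1.15%) of 35093 promoter windows in the table. In MCM6 a match to one spelling overlapped a match to the other on the opposite strand. The letters TTTGAA, known as the CHR element of mitotic genes, were found among the 6 genes only in MKI67, against 15.2% of all windows, and CCAAT in 5 of the 6, against 34.6%. Those backgrounds count windows and not genes. Counted by window, 4 of the 8 had an E2F match, 1 of 8 a CHR match and 7 of 8 a CCAAT match. A match describes the letters and not a bound site. Printed 5′ to 3′ below is 1 E2F match of each of the 4 genes and 1 CHR match of MKI67, with that match in capitals. Other matches, CCAAT included, are not marked, also where they lie within a printed stretch.
MCM2, chr3:127598402-127598431, plus strand: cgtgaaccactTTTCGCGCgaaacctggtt
MCM3, chr6:52284728-52284757, minus strand: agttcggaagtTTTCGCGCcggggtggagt
MCM6, chr2:135876577-135876606, minus strand: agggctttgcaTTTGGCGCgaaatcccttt
MCM7, chr7:100101388-100101417, minus strand: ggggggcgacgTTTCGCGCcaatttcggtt
MKI67, chr10:128126453-128126482, minus strand: ttagcgccagaaTTTGAAtcttcgttttcg

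The lists differed in length, which sets how many genes can have a peak. ALKBH3 knockdown replicates 1, 2 and 3 held 34691, 13056 and 8474 distinct peaks, and control replicates 1, 2 and 3 held 5015, 4894 and 15130. The depth of the libraries is unknown. Whether ALKBH3 mRNA was reduced was not analysed here: ALKBH3 itself had 1 peak, in knockdown replicate 1. Of 8 epithelial and gastric marker genes 6 had a peak, KRT8 and KRT18 in all 6 lists. Of 4 blood genes 1 did (HBB), and of 4 stromal and endothelial genes 1 did (COL1A1). Counted by list, KRT19 and COL1A1 were each called in 3 knockdown and 2 control lists, and HBB in 1 of either group. EPCAM was called in 1 knockdown list and 2 control lists, VIL1 in 2 knockdown lists only and MUC1 in 1 knockdown list only. The number of lists thus did not separate the epithelial markers from COL1A1. The libraries are bulk, so a mark on more RNA, more RNA per cell and a larger share of dividing cells cannot be told apart in any count given here.

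Peaks on the 10 genes were more numerous in knockdown lists, by about as much as the lists were longer. A peak was found on 10, 8 and 7 of the genes in knockdown replicates 1, 2 and 3, and on 4, 2 and 7 in control replicates 1, 2 and 3. Knockdown replicate 3 and control replicate 3 met at 7, so the groups touched. The means were 8.33 ± 1.53 genes in knockdown and 4.33 ± 2.52 in control lists (SD, n = 3 each). The 10 genes carried 94, 18 and 9 peaks in the knockdown lists, against 12, 3 and 32 in the control lists, and these ranges overlapped. The ratio of geometric means was 2.36-fold (log2 1.24), beside 2.18-fold (log2 1.12) for all peaks. Per 10000 peaks of a list the 10 genes held 27.1, 13.8 and 10.6 peaks in knockdown and 23.9, 6.13 and 21.2 in control lists. These averaged 17.2 ± 8.74 in knockdown and 17.1 ± 9.58 in control lists (SD, n = 3 each), a difference far smaller than the spread between replicates.

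**Figure D1:**
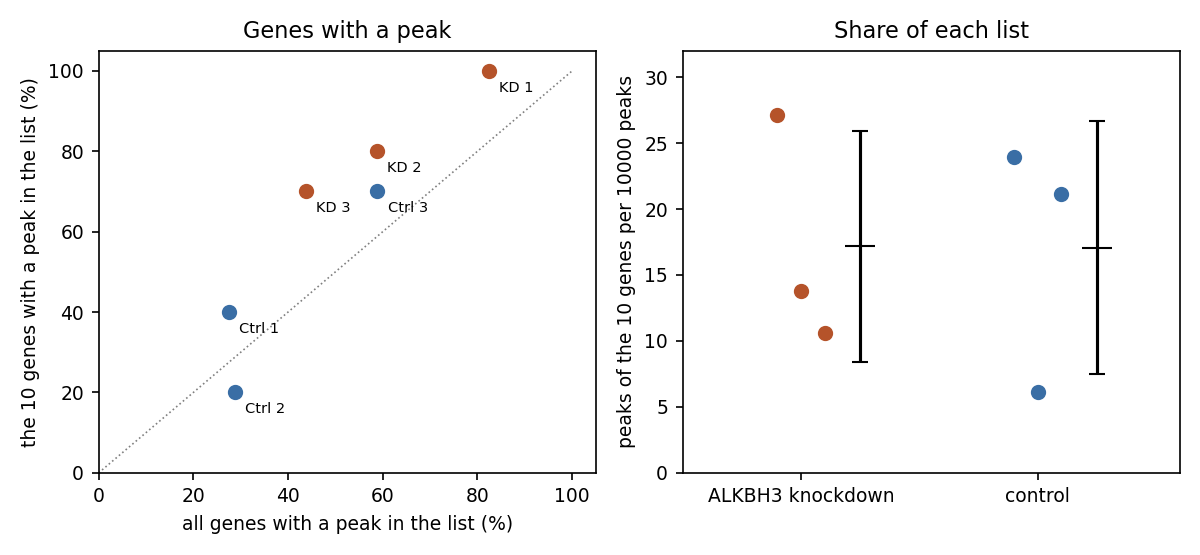
Left, the share of the 10 genes with a peak (vertical axis, percent) against the share of all 10226 genes with a peak (horizontal axis, percent), 1 point per list; KD is ALKBH3 knockdown and Ctrl is control. Right, peaks of the 10 genes per 10000 peaks of the list, with points for the 3 lists of each group and the mean ± SD beside them; the groups overlap, at 17.2 in knockdown and 17.1 in control lists on average.

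The plot of these shares set each list against its own length. Knockdown replicates 1, 2 and 3 had a peak on 82.4%, 58.7% and 43.8% of all 10226 genes, and control replicates 1, 2 and 3 on 27.4%, 28.7% and 58.9%. A gene was called recurrent in knockdown where the knockdown lists with a peak outnumbered the control lists with one by at least 2. MCM2, MCM4, MKI67 and CCNE2 were, 4 of 10, against a background of 20.1% of all genes. None of the 10 was recurrent in control, against 1.76% of all genes. CCNE2 alone had a peak in every knockdown list and in no control list, 1 of 10 against 2.9%. It was also the only one with more peaks in every knockdown list than in every control list, 1 of 10 against 4.81%, and none had fewer in every knockdown list, against 0.108%. With peaks counted per 10000 of the list, CCNE2 was again the only gene higher in every knockdown list, against 4.89% of all genes, and none was lower in every one, against 2.43%. With 3 lists against 3 the exact permutation test cannot go below p = 0.1, so that no gene could pass the threshold of 0.05, and every Benjamini-Hochberg adjusted p over the 10226 genes was 1. No gene among all tested had an unadjusted p under 0.05, and 503 reached the smallest p.

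**Figure D2:**
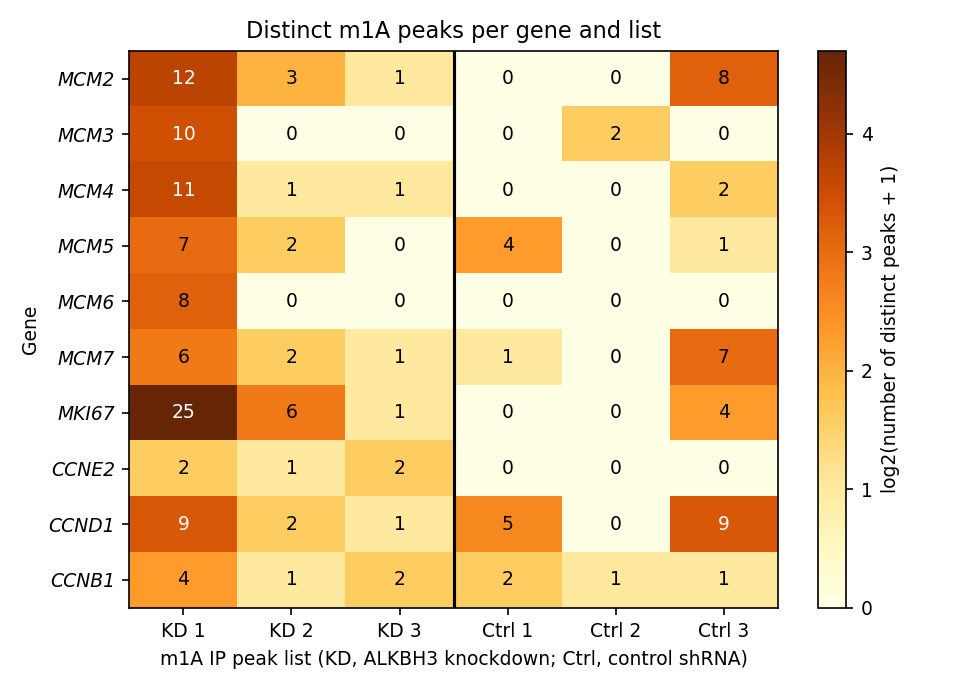
Number of distinct m1A peaks on each of the 10 genes (rows) in each list (columns); KD is ALKBH3 knockdown and Ctrl is control, and the number and shade of a cell give the count. CCNE2 has 2, 1 and 2 peaks in the KD columns and 0 in the Ctrl columns, while most peaks of the other genes lie in knockdown replicate 1.

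CCNE2, the cyclin that partners CDK2 at entry into S phase, had 2, 1 and 2 peaks in knockdown replicates 1, 2 and 3, with no control peak, as the grid of counts shows. The groups did not overlap. The means were 1.67 ± 0.577 peaks in knockdown and 0 in control lists (SD, n = 3 each; exact permutation test, two-sided here and below, p = 0.1, the smallest possible; adjusted p = 1). Its strongest peaks had a log2 enrichment of 3.10, 3.74 and 3.44 in the knockdown lists. These stood at the 91.3, 88.2 and 87.8 percentile of all peaks in their own list, a high rank in each. The other 2 peaks had 2.77 in replicate 1 and 2.01 in replicate 3.

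All 5 CCNE2 peaks lay at the 3′ end of the transcript, 4 in the 3′ UTR alone and 1 that reached the coding sequence in some annotated transcripts. In hg19 coordinates, on the minus strand, they ran from chr8:95893798-95893872 (replicate 1), nearest the stop codon, through chr8:95893098-95893272 (replicate 2), chr8:95892723-95892897 (replicate 3) and chr8:95892373-95892447 (replicate 1) to chr8:95891998-95892347 (replicate 3). No pair of them overlapped. The gene was thus shared by the knockdown lists, but no position within it was.

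CCND1, the cyclin that partners CDK4 and CDK6 in G1, had 9, 2 and 1 peaks in knockdown replicates 1, 2 and 3 and 5, 0 and 9 in control replicates 1, 2 and 3. By number of peaks it was the only one of the 10 genes with a lower mean in knockdown, at 4 ± 4.36 against 4.67 ± 4.51 peaks in control (SD, n = 3 each; exact permutation test p = 1; adjusted p = 1). Its strongest peaks had a log2 enrichment of 2.07, 1.47 and 1.35 in knockdown replicates 1, 2 and 3, against 0.92 in control replicate 1 and 1.85 in control replicate 3. By number of peaks 9 of the 10 genes had a higher mean in knockdown, beside 77.5% of all genes higher and 14.9% lower. Per 10000 peaks of the list, 5 were higher and 5 lower in knockdown, beside 60% of all genes higher, and the lower ones were MCM3, MCM5, MCM7, CCND1 and CCNB1. For CCND1 the ranges overlapped, in number and in enrichment. None of these 5 strongest peaks stood above the 54.3 percentile of its list.

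CCND1 also held a position found in 4 lists, at its start codon. The joined peak on the plus strand spanned chr11:69455955-69458085 and covered 5′ UTR and coding sequence, and 100 bases, chr11:69456030-69456129, were common to all 3 knockdown lists and control replicate 3. The peaks over these bases had 1.68, 1.47 and 1.35 in knockdown replicates 1, 2 and 3, against 1.33 in control replicate 3. At the other end of the gene, in the 3′ UTR, the interval chr11:69468311-69468485 was called identically in knockdown replicate 1 and control replicate 3, with 1.91 in the knockdown list and 1.85 in the control list. The control value lay just below the knockdown values at both places. By rank within its list this did not hold at the start codon. There the control peak stood at the 17.3 percentile, against 28.6, 16.3 and 17.8 in knockdown replicates 1, 2 and 3.

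CCNB1, which activates CDK1 at entry into mitosis, was the only one of the 10 genes with a peak in all 6 lists. It had 4, 1 and 2 peaks in knockdown replicates 1, 2 and 3 and 2, 1 and 1 in control replicates 1, 2 and 3. The groups overlapped, with means of 2.33 ± 1.53 peaks in knockdown and 1.33 ± 0.577 in control lists (SD, n = 3 each; exact permutation test p = 0.7; adjusted p = 1). The strongest peak had a log2 enrichment of 1.82, 3.75 and 2.63 in the knockdown lists, against 1.27, 1.05 and 2.64 in the control lists. The highest value was in knockdown replicate 2, but control replicate 3 lay above knockdown replicates 1 and 3.

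Around the CCNB1 stop codon and in its 3′ UTR, peaks of 5 lists chained into 1 position, chr5:68473403-68473852 on the plus strand. No base of it was common to the 5 lists. Knockdown replicates 2 and 3 and control replicate 3 overlapped in its downstream end, where the enrichment was 3.75 and 2.63 in knockdown and 2.64 in control. The peaks of control replicates 1 and 2 lay further upstream, with 1.27 and 1.05. Both fell within a second peak of knockdown replicate 3, chr5:68473403-68473702, which had 1.99. Knockdown replicate 1, the longest list, had no peak there, and its 4 CCNB1 peaks lay upstream in the coding sequence and at its start.

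The MCM genes carried most of their peaks in knockdown replicate 1, and MCM2 and MCM4 had peaks in all 3 knockdown lists and 1 control list. MCM2, a subunit with a histone-binding tail, had 12, 3 and 1 peaks in knockdown replicates 1, 2 and 3 and 0, 0 and 8 in control replicates 1, 2 and 3. Its means were 5.33 ± 5.86 peaks in knockdown and 2.67 ± 4.62 in control lists (SD, n = 3 each; exact permutation test p = 0.5; adjusted p = 1). Control replicate 3 lay above knockdown replicates 2 and 3, so the groups overlapped. The strongest peak had a log2 enrichment of 3.46, 2.01 and 1.39 in the knockdown lists, against 1.95 in control replicate 3. The 3.46 belonged to 1 of a pair of short 5′ UTR peaks found only in knockdown replicate 1, at chr3:127317705-127317804 and chr3:127317855-127317879 on the plus strand. At a coding position, chr3:127323720-127323969, knockdown replicates 1 and 2 had 2.19 and 2.01, against 1.95 in control replicate 3, and the 3 lists shared 50 bases.

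MCM4, a catalytic subunit, had 11, 1 and 1 peaks in the knockdown lists, against 0, 0 and 2 in the control lists. The means were 4.33 ± 5.77 peaks in knockdown and 0.667 ± 1.15 in control lists (SD, n = 3 each; exact permutation test p = 0.5; adjusted p = 1). Control replicate 3 again lay above 2 of the knockdown lists. Its strongest peak had a log2 enrichment of 3.85, 3.33 and 1.59 in knockdown replicates 1, 2 and 3 and 3.13 in control replicate 3. In knockdown replicates 1 and 2 and control replicate 3 that peak lay within 1 joined position of the 3′ UTR, chr8:48889555-48889754 on the plus strand. It ranked at the 97.6 and 81.7 percentile of the knockdown lists, against 83.8 in the control list, and the 3.85 was the highest enrichment of all 168 peaks on the 10 genes. The 75 bases common to the 3 lists belonged, in knockdown replicate 1, to a second and weaker peak with 2.42. The peak of knockdown replicate 3 lay in coding sequence near the start of the gene, inside chr8:48874122-48874935, where replicate 1 also had a peak.

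MCM7, a subunit that is also the host of an intronic microRNA cluster, had 6, 2 and 1 peaks in knockdown replicates 1, 2 and 3 and 1, 0 and 7 in control replicates 1, 2 and 3. The highest count was in a control list, and the means of 3 ± 2.65 peaks in knockdown and 2.67 ± 3.79 in control lists were close to each other (SD, n = 3 each; exact permutation test p = 1; adjusted p = 1). At its stop codon end, on the minus strand, peaks of 4 lists joined within chr7:99690426-99694992 and shared 25 bases. The peaks that shared them had 1.52 and 1.44 in knockdown replicates 1 and 2, against 1.87 and 1.69 in control replicates 1 and 3. Both control values were above both knockdown values, and a further peak of control replicate 3 within the joined position had 1.03. Of the 7 MCM7 positions 5 were shared by at least 2 lists.

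MCM5, a further ring subunit, had 7, 2 and 0 peaks in the knockdown lists, against 4, 0 and 1 in the control lists. The means were 3 ± 3.61 peaks in knockdown and 1.67 ± 2.08 in control lists (SD, n = 3 each; exact permutation test p = 0.7; adjusted p = 1). Its strongest peaks had a log2 enrichment of 2.77 and 2.21 in knockdown replicates 1 and 2, against 2.07 and 1.93 in control replicates 1 and 3. The peaks toward its 3′ end chained into 1 position of 4 lists, chr22:35817326-35820500 on the plus strand, with no base common to them. The 2.77 belonged to a single deposited block of 2025 nt labelled as coding. The blocks of MCM5 in knockdown replicate 1 summed to 4493 nt, more than its longest transcript of 3534 nt, so the region label of that peak is uncertain.

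MCM3 and MCM6 had peaks in a single knockdown list. MCM3 had 10, 0 and 0 peaks in knockdown replicates 1, 2 and 3 and 0, 2 and 0 in control replicates 1, 2 and 3. The strongest of them had nearly the same log2 enrichment in both groups, 1.94 in knockdown replicate 1 and 1.96 in control replicate 2, and none of its 12 positions was shared between lists. MCM6 had 8 peaks in knockdown replicate 1, from chr2:136598271 to chr2:136633953 on the minus strand, and none in any other list. The strongest MCM6 peak had 2.66, the 81.3 percentile of the list, and spanned the start codon. For both genes the exact permutation test gave p = 1 (adjusted p = 1).

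MKI67, the longest of the 10 transcripts at 12678 nt, had 25, 6 and 1 peaks in the knockdown lists, against 0, 0 and 4 in the control lists. Its means of 10.7 ± 12.7 peaks in knockdown and 1.33 ± 2.31 in control lists were the furthest apart among the 10 genes, by 9.33 peaks (SD, n = 3 each; exact permutation test p = 0.2; adjusted p = 1). The SD within knockdown was larger than that difference, and control replicate 3 lay above knockdown replicate 3. The difference was 2.17 without knockdown replicate 1, and 0 at 4-fold enrichment or more, where 2 knockdown lists and 1 control list had a peak. At equal list length no list had an MKI67 peak left, so the difference of 0 there compares nothing. The peaks of knockdown replicate 1 lay in coding sequence, 23 of 25, and the other 2 in the 5′ UTR at chr10:129923941-129924015 and chr10:129924395-129924419 on the minus strand, with a log2 enrichment of 2.41 and 2.56. In the 3′ UTR, knockdown replicate 2 had a peak of 2.53 at chr10:129896248-129896322. Control replicate 3 had 3 peaks there, of 2.15, 2.35 and 2.07, none of which overlapped it. Of 34 MKI67 positions 2 were shared, both in coding sequence and both by knockdown replicates 1 and 2, at chr10:129901824-129902173 and chr10:129904974-129905273.

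**Figure D3:**
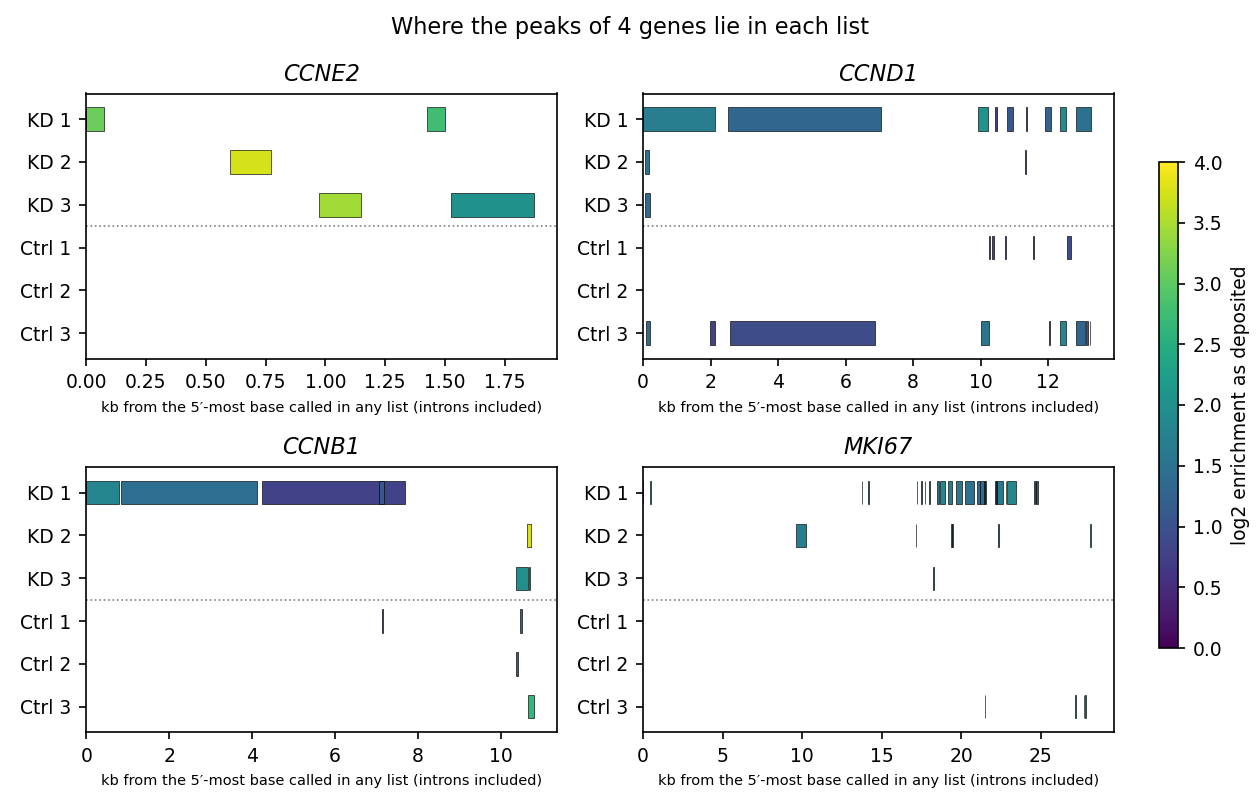
Spans of the peaks on CCNE2, CCND1, CCNB1 and MKI67, 1 panel per gene and 1 row per list, ALKBH3 knockdown (KD) above control (Ctrl); the horizontal axis is the distance in kb from the most 5′ base called in any list, introns included, and the colour is the log2 enrichment. CCNE2 has 5 peaks that do not overlap, all in KD rows, and 25 of the MKI67 peaks are in KD 1.

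The 168 peaks joined into 115 positions, and the peak maps show those of 4 genes. Of these, 92 (80%) were found in 1 list only, close to the 80.9% of all peak positions, and 23 (20%) in at least 2 lists, beside 19.1% of all. None was found in all 6 lists. A position was called recurrent where at least 2 lists of one group and none of the other had it. The 3 positions recurrent in knockdown, 1 in MCM4 and 2 in MKI67, made up 2.61% of the 115, against 4.69% of all 57090 positions. No position was recurrent in control, against 0.813%, and none was in every list, against 0.646%. Among the peaks of a list, 24 of 94, 11 of 18 and 6 of 9 in knockdown replicates 1, 2 and 3 lay at a position shared with another list, against 7 of 12, 1 of 3 and 27 of 32 in control replicates 1, 2 and 3. The share was lowest in the longest list, knockdown replicate 1, and highest in control replicate 3.

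Leaving out 1 list changed which genes stood apart. Without control replicate 3, MCM2, MCM4 and MKI67 joined CCNE2 in having more peaks in every knockdown list than in the control lists, 4 genes of 10 against a background of 13.3%. Without the longest list of each group, knockdown replicate 1 and control replicate 3, the same 4 genes did so, against 19.1%. Without knockdown replicate 3, CCNE2 and MKI67 did, against 17.4%. By the count of lists, CCNE2 alone was recurrent in knockdown without knockdown replicate 1, 2 or 3, against 4.43%, 5.59% and 8.67% of all genes, since with 2 knockdown lists left a gene must have no control peak. Of positions recurrent in knockdown the 10 genes had 0 without knockdown replicate 1, against 1.4% of all positions, 1 without knockdown replicate 2, against 1.81%, and 9 without control replicate 3, against 7.86%. The share over all positions thus also rose without control replicate 3. Totals of positions on the 10 genes in these settings are not given here, so the counts do not show a difference from all genes. The mean number of peaks in MCM2, MCM3, MCM5 and MCM7 was lower in knockdown than in control lists without knockdown replicate 1, and that in MCM7 also without control replicate 1 or 2. In CCND1 it was higher in knockdown without knockdown replicate 2, knockdown replicate 3 or control replicate 3. The peaks of MCM2, MCM4, MKI67 and CCNE2 in control replicate 3, a list about as long as that of knockdown replicate 2, numbered 8 in MCM2, 2 in MCM4, 4 in MKI67 and 0 in CCNE2.

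**Figure D4:**
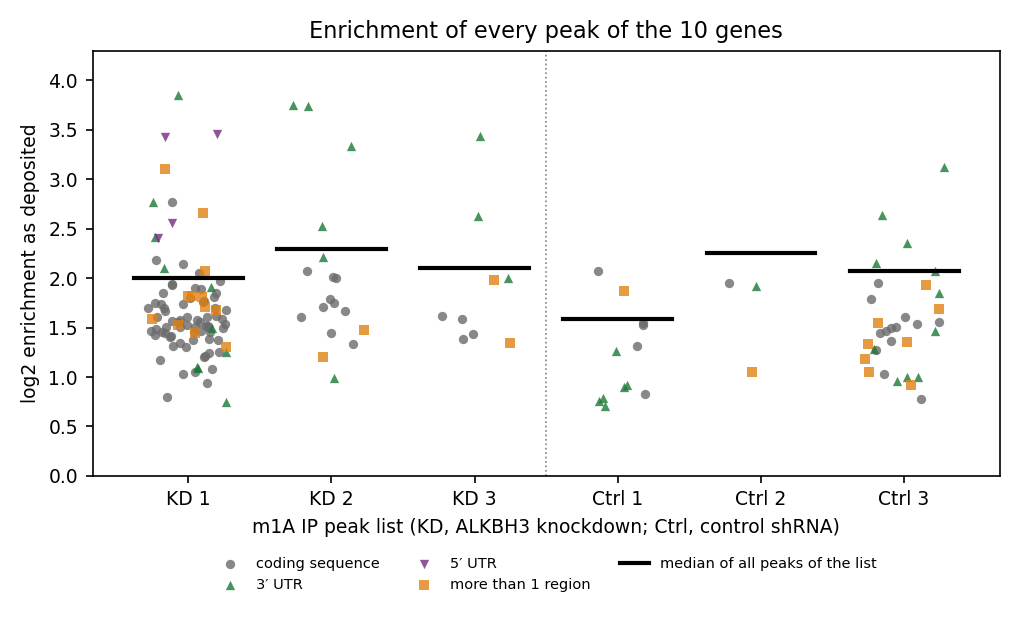
Log2 enrichment (vertical axis) of every peak on the 10 genes in each list (horizontal axis), ALKBH3 knockdown (KD) left of control (Ctrl), 1 point per peak with its shape and colour giving the transcript region and a black line at the median of all peaks of the list. Most points lie below the line in each list, and the points above it, 28 of 168, are mostly UTR peaks.

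Most peaks on the 10 genes were weak for their list, in both groups. The median log2 enrichment of their peaks was 1.58, 1.77 and 1.62 in knockdown replicates 1, 2 and 3, beside 2.00, 2.29 and 2.11 for all peaks of those lists. In control replicates 1, 2 and 3 it was 1.09, 1.92 and 1.48, beside 1.58, 2.25 and 2.07. The median of the 10 genes was below that of the list in each of the 6. In all, 28 of 168 peaks (16.7%) stood above the median of their list, which were 15 of 94, 4 of 18 and 2 of 9 in knockdown and 2 of 12, 0 of 3 and 5 of 32 in control lists.

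Strength differed by the part of the transcript, as the plot of enrichment by list shows. Of 101 peaks in coding sequence alone, 5 (4.95%) stood above the median of their list. Of 37 in the 3′ UTR alone 15 (40.5%) did, and so did all 4 in the 5′ UTR, which were those of MCM2 and MKI67 in knockdown replicate 1. Over all peaks of a list this share ran from 36.8 to 50.4% in coding sequence and from 53.0 to 64.2% in the 3′ UTR. It was 68.3% for the 5′ UTR in knockdown replicate 1. Coding sequence thus lay below the 3′ UTR over all genes too. The 5′ UTR did not lead in every list: in knockdown replicate 2 its share was 55.6%, against 64.2% in the 3′ UTR. In coding sequence the 10 genes had the lower share in each list. In the 3′ UTR they had 4 of 6 in knockdown replicate 2 and 2 of 3 in replicate 3, above the 64.2% and 62.0% of all genes. In the other lists their 3′ UTR share was lower. The 3′ UTR peaks of the 10 genes were unevenly spread over them: CCND1 held 6 of 10 in knockdown replicate 1, against 5 of 6 in control replicate 1 and 5 of 11 in control replicate 3.

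The share of peaks in coding sequence alone was 72.3%, 55.6% and 44.4% in knockdown replicates 1, 2 and 3, and 41.7%, 33.3% and 40.6% in control replicates 1, 2 and 3. Every knockdown list lay above every control list, by a mean of 57.4 ± 14% against 38.5 ± 4.54% (SD, n = 3 each). The Wilson 95% intervals, which cover counting error only, ran from 62.6 to 80.4%, 33.7 to 75.4% and 18.9 to 73.3% in knockdown, and from 19.3 to 68.0%, 6.15 to 79.2% and 25.5 to 57.7% in control lists. All pairs of these intervals overlapped except those of knockdown replicate 1 and control replicate 3. The same share over all peaks was 55.7%, 45.3% and 39.9% in knockdown and 26.0%, 25.3% and 37.7% in control lists, so the groups were ordered alike over all genes. When only peaks of at least 4-fold enrichment were kept, or the lists were set to equal length, the difference turned round and the coding share of the 10 genes was lower in knockdown. Few peaks were left: 15, 8 and 3 in knockdown and 1, 0 and 5 in control lists at 4-fold. At equal length they were 4, 3 and 4, against 12, 3 and 2. That cut kept the 4894 strongest peaks of each list, so weak peaks were lost mostly from the longer lists. The coding peaks of the 10 genes ranked low in those lists, so the turn at equal length cannot show whether the coding share differed. The 1 peak of control replicate 1 at 4-fold was a coding peak of MCM5, so that its share rests on a single peak.

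**Figure D5:**
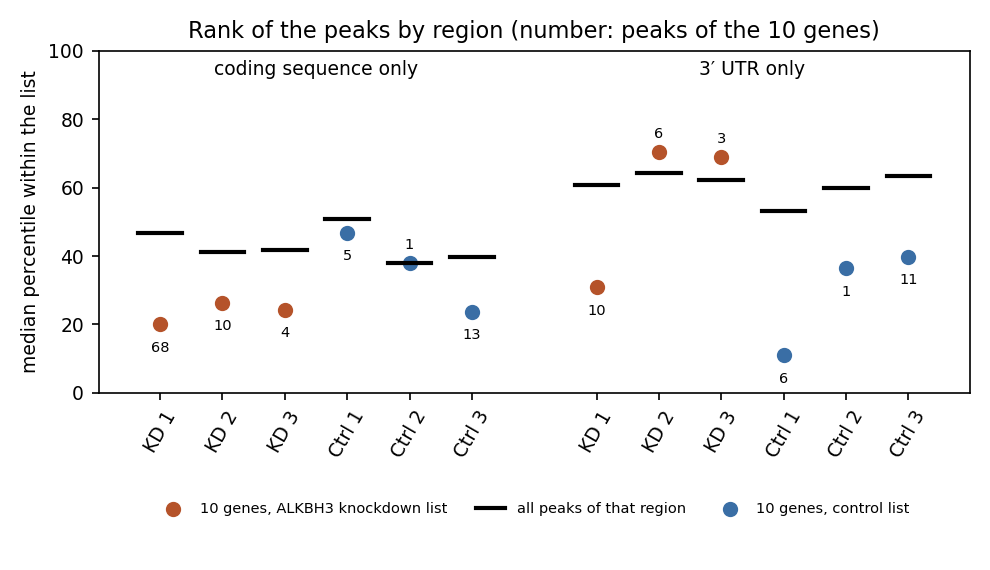
Median percentile of enrichment within the list (vertical axis) for peaks of the 10 genes in coding sequence alone (left) and in the 3′ UTR alone (right), 1 point per list, with a black line at the median of all peaks of that region and the number of peaks beside each point; KD is ALKBH3 knockdown and Ctrl is control. Coding peaks of the 10 genes rank below all coding peaks in the 3 knockdown lists, at 20.1, 26.4 and 24.4. They also do in control replicates 1 and 3, at 46.9 and 23.8, but not in control replicate 2, with a single peak.

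Within a region the ranks were compared with those of all genes. Coding peaks of the 10 genes had a median percentile of 20.1, 26.4 and 24.4 in knockdown replicates 1, 2 and 3, beside 46.9, 41.1 and 41.8 for all coding peaks. They had 46.9 and 23.8 in control replicates 1 and 3, beside 50.7 and 39.9, and the single coding peak of control replicate 2 had 38.1, beside 38.0. For the 3′ UTR they were 30.8, 70.6 and 69.0 in the knockdown lists, beside 60.7, 64.3 and 62.1, and 10.9, 36.4 and 39.8 in the control lists, beside 53.1, 59.8 and 63.3. These medians rest on 10, 6 and 3 peaks in the knockdown lists, against 6, 1 and 11 in the control lists, so that of control replicate 2 is a single peak. The medians lay above those of all genes in knockdown replicates 2 and 3 and below them in the other 4 lists.

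Of the other genes of DNA replication and the cell cycle, 93 of 99 had a peak. In knockdown 18 of the 93 (19.4%) were recurrent, near the 20.1% of all genes, and in control 3 (3.23%), beside 1.76%. Their median difference in number of lists was 0. The list of helicase partners had the largest share of the lists examined, with 8 of 12 genes recurrent in knockdown and none in control. It holds genes whose proteins join the MCM ring or act on it, and also MCM8 and MCM9, which are not subunits of that ring. MCM8, with a peak in 3 knockdown lists and 1 control list, was 1 of the 8. Genes with a peak there numbered 10, 10 and 7 in knockdown replicates 1, 2 and 3 and 1, 3 and 2 in control replicates 1, 2 and 3, out of 12. Over all genes the shares with a peak were the 82.4%, 58.7% and 43.8% of the knockdown lists and the 27.4%, 28.7% and 58.9% of the control lists given above. At equal list length they numbered 5, 5 and 5 in knockdown and 1, 3 and 0 in control lists, and 4 of the 12 were recurrent in knockdown, against 12.2% of all genes. At 4-fold enrichment or more 5 were, against 20.9%. Without knockdown replicate 1, 2 or 3 the count was 1, 2 or 3, against the 4.43%, 5.59% and 8.67% of all genes above. The group was singled out after its values were seen, and these alternatives were added then.

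DBF4, the activator of the kinase CDC7 that phosphorylates the MCM ring, had its strongest peak at a log2 enrichment of 5.05, 2.20 and 3.74 in knockdown replicates 1, 2 and 3 and no control peak. CDC45, a component of the active helicase, had 2.05 and 1.87 in knockdown replicates 1 and 3 and none in control. CLSPN, a fork and checkpoint protein, had 3.06, 2.79 and 3.07 in knockdown and 2.47 in control replicate 2. These 3 genes were named for a difference of at least 2 lists, the largest of their group with ties in alphabetical order. That difference therefore follows from the choice.

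Genes for loading the MCM ring went both ways, with 1 of 10 recurrent in either group. Over all genes 20.1% were recurrent in knockdown and 1.76% in control. ORC2, a subunit of the origin recognition complex, had 3.68, 4.54 and 2.80 in knockdown and no control peak. ORC3, its partner in that complex, had 2.41 in knockdown replicate 1 and 1.89, 2.57 and 2.75 in control replicates 1, 2 and 3. Of 21 genes for DNA synthesis at the fork, 5 (23.8%) were recurrent in knockdown and 2 (9.52%) in control, beside the same shares of all genes. LIG1, which joins Okazaki fragments, had 2.41, 3.11 and 2.14 in knockdown and 3.00 in control replicate 2. POLA1, the catalytic subunit of polymerase alpha, had 2.56, 3.07 and 3.38 in knockdown and 3.16 in control replicate 3. POLA2, its second subunit, had 2.38 in knockdown replicate 1 and 2.03, 2.5 and 2.32 in the control lists.

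Among 10 other cyclins with a peak, 3 (30%) were recurrent in knockdown and none in control, beside 20.1% and 1.76% of all genes. CCNF, the F-box cyclin, had 2.58 and 3.18 in knockdown replicates 1 and 2 and no control peak. CCNG2 had 3.01, 3.41 and 2.77 in knockdown and 2.91 in control replicate 2, and CCNH, the cyclin of the CDK-activating kinase, had 2.76, 4.90 and 1.69 in knockdown and 2.83 in control replicate 3. Of 10 E2F and partner genes 1 was recurrent in knockdown, again beside 20.1% of all genes. It was TFDP2, a dimer partner of E2F factors, with 2.11, 3.37 and 1.69 in knockdown and 1.98 in control replicate 2.

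No gene was recurrent in either group among the 8 cyclin-dependent kinases and their activators, the 7 CDK inhibitors and RB proteins with a peak, or the 15 mitotic proliferation markers. Over all genes the shares were 20.1% in knockdown and 1.76% in control. CDK1, the partner of cyclin B1, had 1.94, 2.93 and 2.01 in knockdown and 1.26, 2.09 and 3.20 in control lists. CDC25B, a phosphatase that activates it, had 1.64, 2.47 and 2.72 in knockdown and 1.34, 1.54 and 2.28 in control. CDKN1B, the inhibitor p27, had 2.47, 2.39 and 2.80 in knockdown and 3.16 and 2.47 in control replicates 2 and 3. RBL2, an RB relative, had 3.84, 2.93 and 3.34 in knockdown and 2.71 and 2.85 in control replicates 1 and 3. CDC20, an activator of the anaphase-promoting complex, had 1.69, 1.44 and 1.65 in knockdown and 1.49, 1.79 and 1.26 in control. CENPE, a kinetochore motor, had 3.57, 3.31 and 2.93 in knockdown and 2.09, 2.31 and 2.69 in control.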

How the data were processed

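ALKBH3 knockdown was compared with control in SNU-668 cells resistant to erastin, grouped by the labels' genotype. Per the labels' protocols, mRNA was cut into fragments of about 300 nt, enriched with an m1A antibody and read as 150 nt reads with a stranded kit. The submitters' processing notes name HISAT2 2.1.0, Trimmomatic 0.32, FastQC 0.11.7 and hg19 but no roles, and which peak caller was used is not given in the sources used here. Each IP library has its own list, deposited by the authors, so peaks were called per replicate; the input libraries were not analysed here. Per the file headers each peak has a log2 fold change, whose sides are not named; all values being above 0, it was taken as IP relative to input. The false discovery rates and p-values are the authors' own as deposited, every p-value being below 1e-10. Start, end and block lengths are deposited hg19 positions, printed counted from 1. No counts are given, so depth and precision per library are unknown.

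Entries with the same chromosome, start, end and strand counted as 1 distinct peak, assigned by the deposited gene name; no peak of the 10 genes carried another name. Peaks were joined into a position where exon blocks overlapped by at least 1 base on the same strand. A region was given only where all annotated transcripts agreed, and otherwise called mixed. Percentiles are ranks of log2 enrichment within a list. Peak numbers per gene were tested over lists with an exact two-sided permutation test with Benjamini-Hochberg adjustment over 10226 genes (Python 3.11.15, pandas 2.3.3, numpy 2.4.6, scipy 1.17.1), tested on simulated data. The alternatives kept peaks of 4-fold enrichment or more, peaks whose −log10 false discovery rate reached 5, or the 4894 strongest peaks of each list (equal length), or used merged peaks, 50% reciprocal overlap, peaks per 10000, a replicate block and leaving out lists. The 10 genes and the gene lists were chosen with earlier results of these data known. From each other list, up to 3 genes with the largest difference in lists (at least 2) were named, or else the 2 with peaks in most lists, ties in alphabetical order.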

Additional observations from a re-analysis of the deposited data

How the results depend on the processing

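Results moved or reversed with 1 list left out, at equal list length, at 4-fold enrichment and with reciprocal overlap, and the cause was not tested. The difference in number of the 10 genes with a peak, 4, was 0 at equal list length and 2.83 to 5.33 with 1 list left out. The count recurrent in knockdown, 4, was 2 (MCM2 and CCNE2) at 4-fold enrichment, 1 (CCNE2) at equal length and 1 to 6 with 1 list left out. The log2 ratio of their peaks per list, 1.24, was -0.19 at equal length and 0.28 to 2.05 with 1 list left out; at 4-fold no value could be had because control replicate 2 had no peak left. The coding share difference, 18.9 points, was -28.6 at 4-fold, over the 2 control lists with a peak left, which held 1 and 5 peaks. It was -25 at equal length, a cut that removes weak peaks mostly from the longer lists, and 11.5 to 25.4 with 1 list left out. The count of genes higher in every knockdown list, 1, was 1 to 4 with 1 list left out, and 4 when the longest list of both groups was dropped. The 3 positions recurrent in knockdown were 0 at equal length, 0 with 50% reciprocal overlap, 0 to 9 with 1 list left out and 1 without the longest lists. Positions in all lists and positions recurrent in control, both 0, were 0 to 1 with 1 list left out. The longest-list and whole-span alternatives were chosen after seeing the data. Every deposited peak passed the false discovery rate filter, so that setting tests nothing.

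With 1 list left out in turn, the difference in mean peak number ran from -0.667 to 5.33 in MCM2, -0.667 to 4.33 in MCM3, -0.667 to 2.83 in MCM5, -1.17 to 2.5 in MCM7, 2.17 to 14.2 in MKI67 and -3.17 to 1.5 in CCND1. It reversed in CCND1 at 4-fold (0.333) and without knockdown replicate 2 (0.333), knockdown replicate 3 (0.833) or control replicate 3 (1.5). At equal length it reversed in MCM3 (-0.667), MCM5 (-1.33), MCM7 (-0.333) and CCNB1 (-0.333), and the difference in lists in MCM7 (-1) and CCND1 (-1). Without knockdown replicate 1 it reversed in MCM2 (-0.667), MCM3 (-0.667), MCM5 (-0.667) and MCM7 (-1.17), and MCM7 did so without control replicate 1 (-0.5) or 2 (-1).

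Whether replicate numbers pair the samples is unknown. Deviations of same-numbered lists correlated at -0.04, 0.08 and -0.12, within the -0.15 to 0.15 of differently numbered lists. With 3 lists a group of unlike length, these values cannot decide it. With the replicate block the log2 ratio of peaks was 1.24, and CCNE2 had an exact sign-flip p of 0.25, the smallest that 3 pairs allow; the block changed no call. With 3 lists a group and unknown depth, a missing peak does not show that a mark was absent.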
